A study of Mus musculus with 12 samples.

Results

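The genes described here are the 9 listed members of the Nodal, Lefty and TGF-beta receptor group, chosen by name as a list that includes known targets of miRNAs with the AAGUGC seed: the secreted inhibitors Lefty1 and Lefty2, the ligand Nodal, its co-receptor Tdgf1, the type I receptors Acvr1b and Tgfbr1, and the type II receptors Acvr2a, Acvr2b and Tgfbr2. They are 9 of the 47643 genes in the count table, and all 9 passed the filter on low counts, which left 14629 genes for testing. Poly(A) RNA was sequenced from E14 mouse embryonic stem cells of the 129/Ola background, a line derived from blastocysts. There were 12 libraries, 2 for each of 6 groups: a Dicer knockout (KO), and complemented lines named 41585, 41589, SOM and 41584, with WT cells as the control. Dicer is the enzyme that cuts precursor RNAs into miRNAs and siRNAs. Per the labels, 41585 processes neither miRNAs nor siRNAs, 41589 lacks siRNA processing and 41584 resembles WT. What the line names stand for, what was put back into each line, and how many clones each group represents were not given in the sources used here. All groups grew in 15% serum with 100 U/mL LIF, the cytokine that keeps mouse ES cells undifferentiated, and puromycin at 1 µg/mL was used for the KO, the complemented lines and the WT control lines.

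Nodal and activin bind a pair of type II receptors, which then phosphorylate a type I receptor and so activate Smad2 and Smad3 in the cytoplasm. TGF-beta uses the same logic with its own pair, Tgfbr2 and Tgfbr1. Nodal additionally needs a co-receptor such as Tdgf1 (Cripto), and the Lefty proteins block it by binding Nodal and Cripto, while being themselves switched on by the signal. In the early mouse embryo this pathway specifies mesendoderm and the left side of the body. In zebrafish the related miRNA miR-430 is known to target a Nodal gene and a Lefty gene, and in human ES cells miR-302 is known to target LEFTY mRNAs.

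The sequences behind that background are shown because they let the 3′ UTRs of the members be read against the most abundant class of miRNA in mouse ES cells. The mature miRNAs below, from RefSeq on GRCm38.p6, share the seed AAGUGCU at bases 2 to 8, given in capitals; they are the miR-290 and miR-302 relatives of this table.
miR-291a-3p: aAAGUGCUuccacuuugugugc
miR-294-3p: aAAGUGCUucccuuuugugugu
miR-295-3p: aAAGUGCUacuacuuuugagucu
miR-302b-3p: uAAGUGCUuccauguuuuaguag
miR-302d-3p: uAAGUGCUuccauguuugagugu
The miR-17 family has the shifted seed AAAGUGC, as in this member.
miR-17-5p: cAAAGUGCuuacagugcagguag

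Complementary letters were searched in the longest annotated 3′ UTR of each gene (GENCODE M21, GRCm38), on the transcript strand only. AGCACTT pairs with seed bases 2 to 8 of miR-294-3p, and AGCACTTA, which contains it, adds the A opposite base 1. The 8-mer was present in 3 of the 9 members, Lefty1, Lefty2 and Tgfbr2, where 3.68% of the 13006 tested genes with a 3′ UTR held it. Because the list was drawn up to include known targets of this seed, the number of members with these letters was partly set by that choice, and nothing is read from it against the shares of all genes given here. The windows below carry the match in capitals, read 5′ to 3′ on the transcript strand. The Lefty1 window is chr1:180938204-180938229 (plus strand), the Lefty2 window chr1:180897908-180897933 (plus strand) and the Tgfbr2 window chr9:116087762-116087787 (minus strand).
Lefty1: tgtatgcgaAGCACTTAcatgtatag
Lefty2: cccagtttaAGCACTTAcatgggtaa
Tgfbr2: aaaacctaaAGCACTTAttttcaatc
Lefty1 and Lefty2 agree over an unbroken run of 13 bases that includes the 8-mer. The shorter AGCACTT was present in 4 members of this list and in 18.4% of genes. The added member was Tgfbr1, at chr4:47411110-47411134 (plus strand), where C follows the match.
Tgfbr1: actaaatgaAGCACTTctgattttc
Tgfbr2 held AGCACTT at 3 places in a 3′ UTR of 6085 nucleotides, and it was the member with GCACTTT, the letters opposite the miR-17 seed, which 15% of genes held. GCACTTA, which lies inside the 8-mer, was in the same 3 members as the 8-mer and in 8.53% of genes. None of these 4 letter strings was found in the 3′ UTRs of Nodal, Tdgf1, Acvr1b, Acvr2a or Acvr2b. A match is a description of letters, not evidence of binding.

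**Figure D1:**
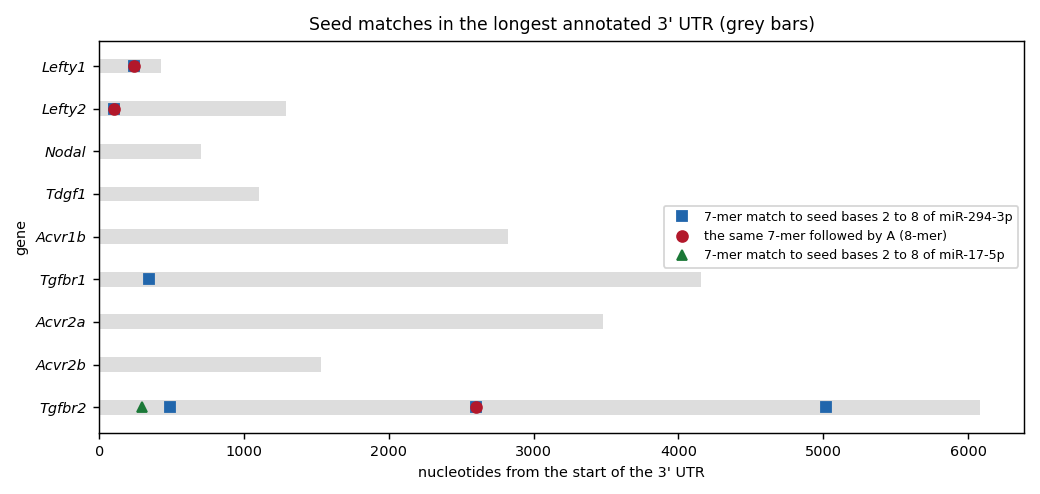
Matches in the longest annotated 3′ UTR of each member (grey bar, length in nucleotides on the x axis, drawn to scale from the stop codon). Red circles mark the 8-mer in Lefty1, Lefty2 and Tgfbr2, blue squares the 7-mer that it contains, which Tgfbr1 also holds, and the green triangle the miR-17 match in Tgfbr2.

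The deposited total counts ran from 5348401 to 10428509 per library, and mitochondrial transcripts took 3.17% to 5.18% of them. Within groups, the correlation of log2 CPM between the 2 libraries lay between 0.935 in 41584 and 0.983 in KO. CPM are counts scaled to the TMM-adjusted library total. Dicer1, the gene knocked out, was measured at 28.5 and 44.0 CPM in KO cells, 29.1 and 39.2 CPM in 41585, 40.2 and 27.8 CPM in 41589, 104.7 and 214.9 CPM in SOM, 42.3 and 55.0 CPM in 41584, and 197.5 and 213.6 CPM in WT cells. KO libraries were low and WT libraries high, with a log2 fold of -2.50 ± 0.36 (standard error; adjusted p = 0.00150 by edgeR's quasi-likelihood test). Line 41584, labelled as similar to WT, stood near the KO level of Dicer1 rather than the WT level, and the exons that these reads fall on are not known here. All 6 ES cell markers examined were present, with Pou5f1 reaching 946 CPM. Of the mesendoderm markers, Foxa2, Gsc and Lhx1 stayed at or below 0.639 CPM in every library. Summed trophectoderm markers were 246.1 to 246.3 CPM in KO, 66.6 to 313.7 CPM in 41585, 40.1 to 44.9 CPM in 41589, 30.1 to 35.8 CPM in SOM, 29.8 to 61.7 CPM in 41584 and 73.1 to 86.9 CPM in WT, and 4 of the 5 tested genes of that list (Krt8, Krt18, Elf5 and Hand1) were called higher in KO and 41585, while Cdx2 stayed at or below 0.244 CPM. Summed primitive endoderm markers were 5.85 to 9.03 CPM in KO, 6.32 to 9.26 CPM in 41585 and 8.95 to 15.9 CPM in 41589. They were 13.3 to 18.0 CPM in SOM, 17.4 to 67.5 CPM in 41584 and 14.0 to 26.3 CPM in WT. In KO and 41585, 4 of 5 tested genes of that list were called lower (Gata6, Dab2, Pdgfra and Sox7). The remaining tested gene of that list had a fold above 0 and was not called. Summed neuroectoderm markers were 46.6 to 49.9 CPM in KO, 47.2 to 62.7 CPM in 41585 and 14.7 to 28.3 CPM over the others, with Pax6 and Nes called higher and Sox1 lower. Of the remaining lists, Zfp42 (ES cell), T and Eomes (mesendoderm) and Pdgfrb (fibroblast) were called lower, and the collagen genes of the fibroblast list stayed at or below 1.53 CPM. T passed the filter on low counts through libraries outside KO and 41585, so lower was the only call open to it. Other called markers were also low, such as Hand1, at most 2.16 CPM in any library. Sox7 reached at most 3.60 CPM, Gata6 5.11 CPM and Pax6 5.79 CPM. Where such a gene passed the filter through 1 side of the comparison, only 1 direction of call was open to it. Nothing is therefore read from the numbers of markers called. Of all tested genes, 17.6% were called higher and 14.6% lower in KO and 41585 against the other groups. The part of these markers in the results below was not tested, and in bulk RNA fewer cells of a type and less RNA per cell cannot be told apart.

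The main comparison set the KO and 41585 groups, both without miRNA processing by their labels or genotype, against WT, SOM, 41584 and 41589. Lefty1 and Tgfbr2 were higher, Acvr1b and Acvr2a were lower, and Lefty2, Nodal, Tdgf1, Tgfbr1 and Acvr2b were not called. Folds are log2 values ± standard error from 1 fit of all 12 libraries, and a call required an adjusted p under 0.05 (Benjamini-Hochberg, over all tested genes). In this comparison 17.6% of tested genes were called higher, 14.6% lower and 32.2% in either direction, so 2 of 9 higher and 2 of 9 lower are close to what tested genes in general gave. The median log2 fold of the 9 members was 0.32, against -0.008 over all tested genes.

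**Figure D2:**
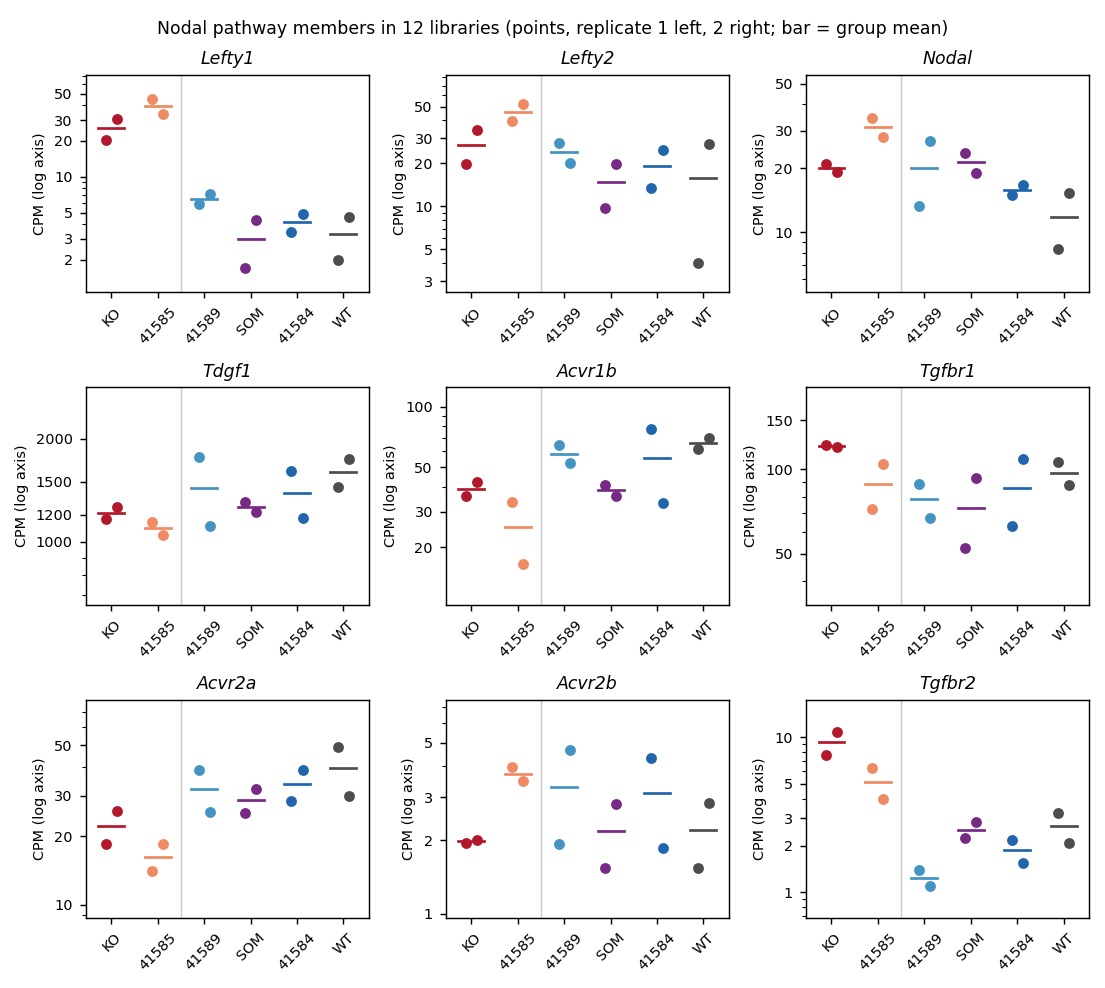
CPM of each member (log axis) in the 12 libraries by group, KO and 41585 left of the grey line and 41589, SOM, 41584 and WT right of it; points are libraries and bars group means. Lefty1 and Tgfbr2 are the panels in which no KO or 41585 point falls among the others. Of all tested genes, 17.8% had ranges that did not overlap in this way.

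Lefty1, the inhibitor that Nodal signalling switches on, had 20.2 and 30.8 CPM in KO cells, 45.3 and 34.0 CPM in 41585, 5.88 and 7.12 CPM in 41589, 1.71 and 4.32 CPM in SOM, 3.45 and 4.82 CPM in 41584, and 2.01 and 4.59 CPM in WT cells. The 4 KO and 41585 libraries stood clear of the other 8, the highest of which was 41589 replicate 2. The log2 fold of KO and 41585 over the 4 other groups was 2.97 ± 0.27 (95% interval 2.38 to 3.55; adjusted p = 9.70e-06 by edgeR), and the call held when any of the 12 libraries was left out. Across tested genes, 10.2% lay wholly above in those 4 libraries. The KO and 41585 libraries held 166 to 387 reads of Lefty1, and the others 10 (SOM replicate 1) to 78 (41589 replicate 2).

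KO against WT alone gave a log2 fold for Lefty1 of 2.91 ± 0.49 (adjusted p = 0.00386 by edgeR). Without WT replicate 1 the fold was 2.46 and the call was lost (adjusted p = 0.0606 by edgeR), and leaving out any 1 of the 4 KO and WT libraries lowered the calls over all tested genes to between 237 and 606, against 1929 with all libraries. Line 41585 against 41584, which shares no library with KO against WT, gave 3.26 ± 0.49 (adjusted p = 0.00258 by edgeR), and this call held in 4 of 4 fits with a library left out. The difference between those contrasts was 0.35 ± 0.67 (95% interval -1.10 to 1.79; adjusted p = 0.999 by edgeR). Lefty1 lies at chr1:180935022-180938400, and its GC content was above that of 93.5% of tested genes.

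Lefty2, the second Lefty gene, had 19.8 and 34.0 CPM in KO cells, 39.8 and 52.4 CPM in 41585, 27.9 and 20.1 CPM in 41589, 9.77 and 19.9 CPM in SOM, 13.4 and 24.7 CPM in 41584, and 4.02 and 27.5 CPM in WT cells. The 2 WT libraries lay farther apart than those of any other group, and KO and 41585 overlapped the others. The log2 fold was 0.96 ± 0.38 (95% interval 0.14 to 1.77; adjusted p = 0.0689 by edgeR), short of the threshold. It passed with DESeq2 (adjusted p = 0.0339), with no filter on low counts (adjusted p = 0.000241 by edgeR), with the replicate block (adjusted p = 0.0220 by edgeR), and without WT replicate 2 (log2 fold 1.45, adjusted p = 0.00270 by edgeR). In KO against WT the fold was 0.75 ± 0.64 and ran from -0.04 without WT replicate 1 to 2.74 without WT replicate 2. Of the 50-base stretches of the Lefty1 transcript 17.9% also occur in Lefty2, and 11.6% of those of Lefty2 occur in Lefty1; the handling of shared reads was not given in the sources used here. Lefty2 lies at chr1:180893108-180899103 on the same strand as Lefty1.

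Nodal, the ligand, had 20.98 and 19.2 CPM in KO cells, 34.5 and 28.2 CPM in 41585, 13.3 and 26.8 CPM in 41589, 23.7 and 18.98 CPM in SOM, 15.0 and 16.6 CPM in 41584, and 8.35 and 15.2 CPM in WT cells. The KO libraries lay within the range of the 41589 and SOM libraries, and 41585 was above them. The log2 fold was 0.58 ± 0.23 (95% interval 0.08 to 1.07; adjusted p = 0.0692 by edgeR). With each library's trend on GC content and exon length removed, the fold was 0.32 (adjusted p = 0.143 by edgeR), while leaving out 41589 replicate 2 gave 0.73 (adjusted p = 0.0133), leaving out WT replicate 2 gave 0.70 (adjusted p = 0.0387) and leaving out 41584 replicate 2 and 41589 replicate 2 together gave 0.75 (adjusted p = 0.00817). Nodal's GC content was above that of 83.6% of tested genes.

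Tdgf1, the Cripto co-receptor of Nodal, was the most abundant member even per kilobase of exon, at 464 ± 25.9 CPM per kb in KO and 609 ± 80.8 CPM per kb in WT cells (SD, n = 2 each). The next highest member in KO, Tgfbr1, had 18.6 ± 0.254 CPM per kb there. Tdgf1 had 1168 and 1265 CPM in KO cells, 1146 and 1047 CPM in 41585, 1768 and 1115 CPM in 41589, 1306 and 1222 CPM in SOM, 1611 and 1171 CPM in 41584, and 1447 and 1746 CPM in WT cells. The groups overlapped, and the log2 fold of KO and 41585 was -0.30 ± 0.16 (95% interval -0.64 to 0.05; adjusted p = 0.171 by edgeR). Without 41584 replicate 2 and 41589 replicate 2 together, the libraries of the groups whose 2 libraries correlated least, Tdgf1 was called lower (-0.42, adjusted p = 0.00670 by edgeR). Its transcript shares 12.5% of its 50-base stretches with the pseudogene Tdgf1-ps1, so part of its reads could be split between them.

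Acvr1b, the type I receptor for activin and Nodal (ALK4), had 35.9 and 42.5 CPM in KO cells, 33.7 and 16.6 CPM in 41585, 64.6 and 52.2 CPM in 41589, 40.8 and 36.1 CPM in SOM, 77.9 and 33.4 CPM in 41584, and 61.4 and 70.2 CPM in WT cells. KO and 41585 overlapped SOM and 41584 replicate 2, and the lowest library was 41585 replicate 2. The log2 fold was -0.77 ± 0.24 (95% interval -1.29 to -0.25; adjusted p = 0.0274 by edgeR). The call was lost without KO replicate 1 (adjusted p = 0.119), KO replicate 2 (adjusted p = 0.0657) or 41585 replicate 2 (adjusted p = 0.124). Acvr1b lies on chromosome 15 (101174067 to 101213684), whose 569 tested genes had a median log2 fold of 0.14, and the fold minus that median was -0.91. The chromosome's median log2 deviation from the mean of 12 libraries differed between libraries (417 genes). It was 0.16 and 0.15 in KO, 0.41 and -0.17 in 41585, 0.07 and -0.16 in 41589. It was 0.05 and -0.33 in SOM, 0.20 and -0.48 in 41584, and 0.002 and 0.13 in WT. The part of these shifts in the Acvr1b levels was not tested. In 41585 against 41584 the Acvr1b fold was -1.15 ± 0.39 (adjusted p = 0.0658 by edgeR), and it ran from -1.76 without 41585 replicate 1 to -0.41 without 41584 replicate 1. That difference passed with DESeq2 (adjusted p = 0.0239) and, by edgeR, with no filter on low counts (adjusted p = 0.00568), with the GC and length trend removed (adjusted p = 0.0215), with the replicate block (adjusted p = 0.0449) and without 41584 replicate 2 (log2 fold -1.63, adjusted p = 0.0178).

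Tgfbr1, the type I receptor for TGF-beta (ALK5), had 122.6 and 120.2 CPM in KO cells, 72.2 and 104.7 CPM in 41585, 89.1 and 67.3 CPM in 41589, 52.6 and 93.2 CPM in SOM, 62.9 and 109.1 CPM in 41584, and 105.9 and 88.4 CPM in WT cells. The KO libraries were the highest, while 41585 lay among the rest. The log2 fold was 0.32 ± 0.20 (95% interval -0.10 to 0.74; adjusted p = 0.229 by edgeR). With the GC and length trend removed it was 0.58 (adjusted p = 0.00608 by edgeR), and its own GC content was above that of only 9.74% of tested genes.

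Acvr2a, a type II receptor for activin and Nodal, had 18.5 and 25.9 CPM in KO cells, 14.0 and 18.4 CPM in 41585, 38.9 and 25.6 CPM in 41589, 25.4 and 32.1 CPM in SOM, 28.5 and 38.9 CPM in 41584, and 49.2 and 30.1 CPM in WT cells. Of the KO and 41585 libraries, 3 were below all others, and KO replicate 2 overlapped the lowest of the rest. The log2 fold was -0.81 ± 0.22 (95% interval -1.28 to -0.35; adjusted p = 0.0122 by edgeR). The call was lost without KO replicate 1 (adjusted p = 0.0849) or 41585 replicate 1 (adjusted p = 0.0694), and with the GC and length trend removed it was -0.55 (adjusted p = 0.00992). Acvr2a shares exon sequence with Orc4 on the opposite strand; the kit is reverse-stranded per the labels, and the strand setting of the counting was not given in the sources used here.

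Acvr2b, the paralogous type II receptor, and Tgfbr2 were the lowest members per kilobase of exon, at 0.503 ± 0.009 and 1.13 ± 0.267 CPM per kb in KO and 0.559 ± 0.234 and 0.325 ± 0.101 CPM per kb in WT cells (SD, n = 2 each). Acvr2b had 1.95 and 2.001 CPM in KO cells, 3.98 and 3.47 CPM in 41585, 1.92 and 4.66 CPM in 41589, 1.54 and 2.82 CPM in SOM, 4.35 and 1.87 CPM in 41584, and 1.55 and 2.84 CPM in WT cells, each from 9 to 51 reads. The groups overlapped and the log2 fold was 0.03 ± 0.38 (95% interval -0.79 to 0.85; adjusted p = 0.962 by edgeR).

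Tgfbr2, the type II receptor that TGF-beta binds first, had 7.68 and 10.8 CPM in KO cells, 6.32 and 3.99 CPM in 41585, 1.39 and 1.10 CPM in 41589, 2.23 and 2.82 CPM in SOM, 2.17 and 1.55 CPM in 41584, and 3.25 and 2.08 CPM in WT cells. The 4 KO and 41585 libraries lay above all 8 others, as they did for 10.2% of tested genes, with 41585 replicate 2 closest to WT replicate 1. The log2 fold was 1.79 ± 0.28 (95% interval 1.18 to 2.402; adjusted p = 0.000511 by edgeR), and the call held with each of the 12 libraries left out. It rests on 31 to 70 reads in KO and 41585 libraries and 10 to 21 in the others. KO against WT gave 1.80 ± 0.48 (adjusted p = 0.0296 by edgeR), and this pairwise call was lost in all 4 fits that left out a library (adjusted p from 0.116 to 0.173). Line 41585 against 41584 gave 1.45 ± 0.49 (adjusted p = 0.0680 by edgeR). Of its 50-base stretches, 0.597% also occur in other genes, such as Chka and Dhrs7b.

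**Figure D3:**
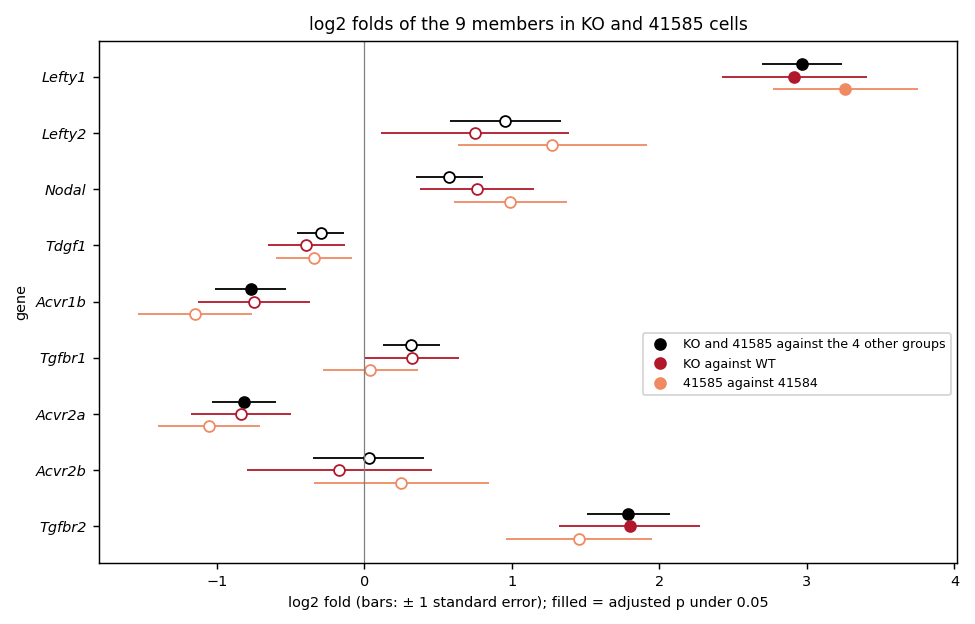
log2 fold (x axis, ± 1 standard error) of each member in KO and 41585 against the 4 other groups (black), KO against WT (red) and 41585 against 41584 (orange); filled points passed the threshold. Lefty1 is filled in all 3 comparisons and Tgfbr2 in the black and red ones, at 1.79 and 1.80.

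By comparison, KO against WT called 2 members higher, Lefty1 and Tgfbr2, and none lower, where 7.29% of tested genes were called higher, 5.9% lower and 13.2% in either direction. Line 41585 against 41584 called Lefty1 higher and no member lower, where 7.65% were called higher, 5.07% lower and 12.7% in either direction. The comparisons with KO asked what each complemented line did to the members relative to the knockout, and they share the KO libraries with one another and with KO against WT, so their values are set side by side. Lefty1 was lower than in KO by a log2 fold of -3.08 ± 0.51 in SOM (adjusted p = 0.00514), -2.63 ± 0.49 in 41584 (adjusted p = 0.00719) and -1.97 ± 0.46 in 41589 (adjusted p = 0.0230, by edgeR throughout). Tgfbr2 was lower by -1.86 ± 0.49 in SOM (adjusted p = 0.0422), -2.29 ± 0.50 in 41584 (adjusted p = 0.0159) and -2.88 ± 0.50 in 41589 (adjusted p = 0.00561). These were the 2 members called in each of those comparisons, and no member was called higher. Of tested genes, SOM against KO called 4.6% lower, 1.48% higher and 6.08% in either direction, 41584 against KO 4.98% lower, 2.46% higher and 7.44% in either direction, and 41589 against KO 4.65% lower, 2.44% higher and 7.09% in either direction. The Lefty1 call was lost without SOM replicate 1 in SOM (adjusted p = 0.0819), without KO replicate 2 in 41584 (adjusted p = 0.0570) and in each of 4 fits with a library left out in 41589 (adjusted p from 0.0626 to 0.170). The Tgfbr2 call was lost in each of 4 such fits in SOM (adjusted p from 0.134 to 0.297) and without KO replicate 1 or 2 in 41584 (adjusted p = 0.0729 and 0.121), and it held in 4 of 4 in 41589.

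No member, and none of the 14629 tested genes, was called by edgeR in 41585 against KO, 41589 against 41584, 41584 against WT, or SOM against WT. At an unadjusted p under 0.05 the numbers of members were 0, 0, 0 and 1 (Nodal in SOM against WT), and of all genes 995, 103, 706 and 3175, in that order. DESeq2 called 1, 0, 27 and 660 genes and no member. In SOM against WT, Nodal's log2 fold was 0.85 ± 0.39 (adjusted p = 0.227 by edgeR), and for the other members the folds lay between -0.78 (Acvr1b) and -0.04 (Acvr2b). In 41585 against KO the folds ran from -0.83 for Tgfbr2 (95% interval -1.82 to 0.16) to 0.91 for Acvr2b (95% interval -0.41 to 2.24), and in 41589 against 41584, the siRNA comparison, from -0.59 for Tgfbr2 to 0.66 for Lefty1. The difference between the 41585 and KO contrasts called no member and no gene by edgeR (419 genes and no member at an unadjusted p under 0.05, and 1 gene by DESeq2).

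**Figure D4:**
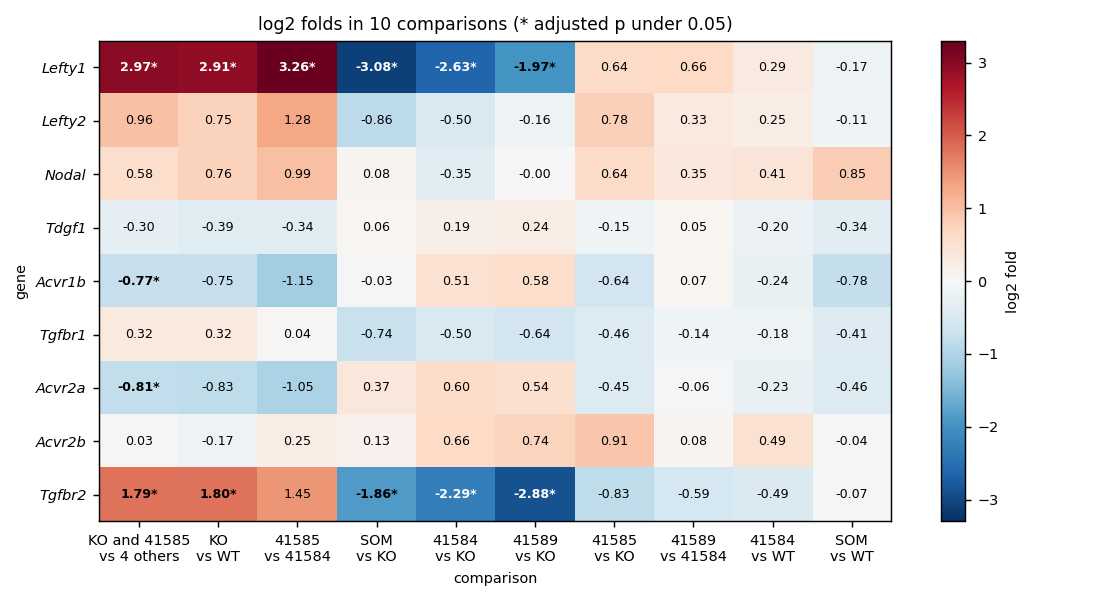
log2 folds of the 9 members (rows) in 10 comparisons (columns; colour scale from lower in blue to higher in red), with an asterisk where the adjusted p was under 0.05. Lefty1 carries an asterisk in 6 columns and Tgfbr2 in 5; the 4 columns on the right hold none.

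Libraries also differed in base composition: the median deviation of the 20% of tested genes highest in GC content minus that of the 20% lowest (of genes with a mean of at least 5 CPM) was 0.05 and -0.08 (log2) in KO, 1.10 and 0.78 in 41585, -0.69 and 0.79 in 41589, 0.34 and -0.13 in SOM, 0.05 and -0.71 in 41584 and -1.11 and -0.34 in WT. The libraries of 1 group therefore differed on this scale. The highest was 41585 replicate 1 and the lowest WT replicate 1. Between them, 41589 replicate 2 lay above 41585 replicate 2, and 41584 replicate 2 and 41589 replicate 1 lay below WT replicate 2. Nodal and Acvr2a levels followed the trend in opposite directions, Nodal being highest in 41585 replicate 1 and lowest in WT replicate 1 and Acvr2a the reverse. Lefty1 was high in both KO libraries, whose trend was near 0, and highest in the 41585 libraries, whose trends were 1.10 and 0.78. In the main comparison its fold with the GC and length trend removed was 2.55 (adjusted p = 6.88e-05 by edgeR). In 41585 against 41584 the Lefty1 fold went from 3.26 to 2.42 with that removal (adjusted p = 0.0115 by edgeR). In 41585 against KO it went from 0.64 to 0.0097, not called in either fit. What these changes come from was not tested. The Tgfbr2 fold in the main comparison with the trend removed was 1.76 (adjusted p = 0.000338 by edgeR).

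**Figure D5:**
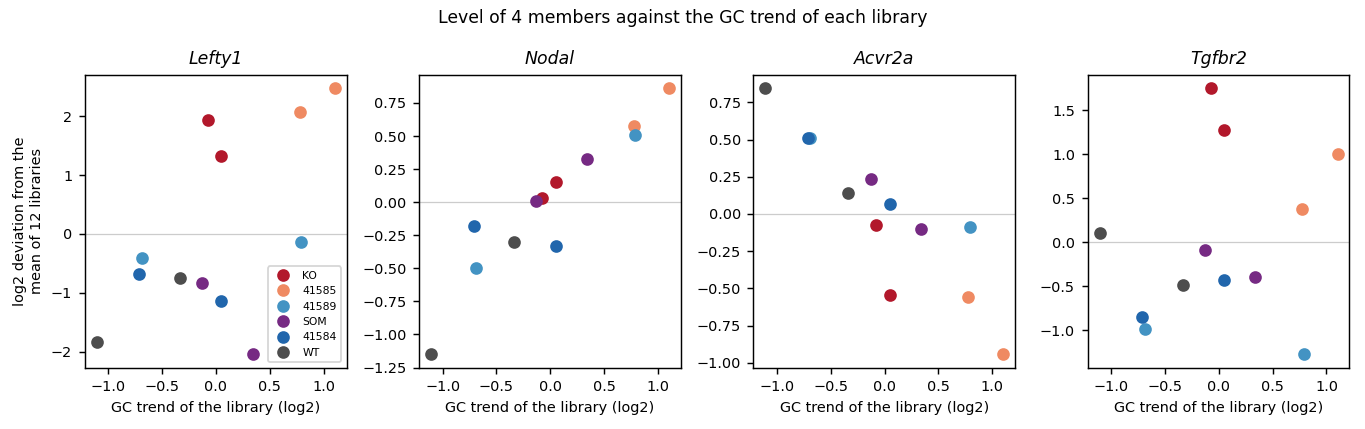
log2 deviation from the mean of 12 libraries (y axis) of Lefty1, Nodal, Acvr2a and Tgfbr2 against the GC trend of each library (x axis, log2). Nodal and Acvr2a follow the trend over the libraries. The red KO points of Lefty1 and Tgfbr2 stand high at a trend near 0, and the orange 41585 points of Lefty1 stand highest, at trends of 1.10 and 0.78.

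Among 29 tested genes of a 40-gene list of the same pathways, 7 were called higher and 6 lower in KO and 41585 against the 4 other groups, where 17.6% of all tested genes were called higher, 14.6% lower and 32.2% in either direction. The list had a median log2 fold of 0.12 against -0.008 over all tested genes. Of the ligands, Gdf3, which signals through Nodal receptors, rose by 1.26 ± 0.27 (adjusted p = 0.00363 by edgeR) and the activin subunit gene Inhbb by 0.59 ± 0.18 (adjusted p = 0.0244), while Tgfb1 fell by 1.48 ± 0.31 (adjusted p = 0.00322). Gdf3 had 91.7 and 95.9 CPM in KO cells, 108.7 and 114.2 CPM in 41585, 29.9 and 71.0 CPM in 41589, 73.7 and 66.9 CPM in SOM, 21.6 and 63.7 CPM in 41584, and 15.9 and 27.6 CPM in WT cells. Of the accessory proteins, the TGF-beta co-receptor Tgfbr3 fell by 2.21 ± 0.37 (adjusted p = 0.000690 by edgeR). It had at most 1.52 CPM in KO and 41585 against at least 3.196 CPM elsewhere, and 7.56% of tested genes lay wholly below in this way. At these levels the other libraries carried Tgfbr3 past the filter on low counts. Little is therefore read from its lower call, here or in the counts below. Ltbp1, which binds latent TGF-beta, fell by 0.74 ± 0.26 (adjusted p = 0.0456 by edgeR). Of the transducers, Foxh1, the DNA-binding partner of activated Smads, rose by 1.33 ± 0.25 (adjusted p = 0.00173), and Drap1, which binds Foxh1 and inhibits it, by 0.90 ± 0.30 (adjusted p = 0.0342), while Smad4 fell by 0.43 ± 0.13 (adjusted p = 0.0245). Of the uncalled genes, the smallest adjusted p were those of Furin, a protease that matures these ligands (log2 fold 1.02 ± 0.39, adjusted p = 0.0616), Smad3 (0.46 ± 0.19, adjusted p = 0.0785), Smurf1 (0.37 ± 0.16, adjusted p = 0.0962) and Smad7 (-0.31 ± 0.16, adjusted p = 0.143). None of the 8 intracellular inhibitors was called, among them the receptor-degrading Smurf1 and Smad7.

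Of the target genes described here, Otx2, a transcription factor of the epiblast and anterior embryo, rose by 1.48 ± 0.47 (adjusted p = 0.0289 by edgeR), with KO and 41585 libraries overlapping the others. Of the 6 mesendoderm markers, T and Eomes passed the filter on low counts. Eomes fell by 0.99 ± 0.25 (adjusted p = 0.0100 by edgeR). T was at 0 in 3 of the 4 KO and 41585 libraries and at 0.122 CPM in KO replicate 1, against 0.107 to 2.94 CPM elsewhere. T therefore passed the filter through the other libraries. Lower was the only call open to it, here, in the count above and in KO against WT below. Mixl1, not tested, had 0.122 to 0.819 CPM in KO and 41585 libraries and 0.309 to 1.02 CPM in the others, which overlapped. In KO against WT 2 genes of this list were called higher, Gdf3 among them, and 3 lower (Tgfbr3, Ltbp1 and T), where 13.2% of all tested genes were called in either direction. In 41585 against 41584 it was 2 higher, Foxh1 among them, and 1 lower (Tgfbr3), where 12.7% of all tested genes were called.

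Across the 12 libraries, the genes whose log2 CPM was most like a member's, among 9880 genes with a mean of at least 5 CPM (9881 for Tgfbr2 and Acvr2b), were Ano6 (Pearson r = 0.98), Ankrd52 and Tmem63a for Lefty1, and Mpzl2 (r = 0.95), Capn2 and Cd63 for Tgfbr2. For Nodal they were Usp5 (r = 0.99), Mad1l1 and Ppp2r1a, and for Acvr2a Tmem184c (r = 0.98), Ssr3 and Synj2bp. For Tdgf1 they were Cdon (r = 0.93), Clcn5 and Fam162a, for Acvr1b Sh3gl3 (r = 0.95), Arrb1 and Foxred2, for Tgfbr1 Zbtb37 (r = 0.97), Fndc3a and Rasal2, and for Acvr2b Lrp1 (r = 0.95), Trrap and Rusc2. Lefty2 had the weakest best match, Prdm10 (r = 0.89), followed by Trappc10 and Phactr4. These are descriptions over 12 libraries that share depth, base composition and group structure.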

How the data were processed

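The authors deposited unnormalised read counts per gene for each library, made from reads aligned with STAR 2.4.2a to mm10 (GRCm38), per the submitters' processing notes; the counting program, its annotation and strand setting were not given in the sources used here. Positions, symbols and 3′ UTRs came from GENCODE M21 (GRCm38), which named 47224 of 47643 genes. Counts were filtered with filterByExpr and tested with edgeR 4.0.16 (R 4.3.3; robust quasi-likelihood, TMM, 1 mean per group, 12 libraries, 6 residual degrees of freedom, common biological coefficient of variation 0.278); the scripts were tested on simulated counts. DESeq2 1.42.0 was an alternative. Intervals are 95%. Likeness of pattern used log2 CPM with a prior count of 2. The 9 members, the pathway and marker lists and the tests were chosen with earlier results of these data known. By the rule for named genes these are the members, Dicer1, the genes of the pathway list called in the comparison described and up to 4 others of smallest adjusted p, with the 3 genes of most similar pattern for a member. Exceptions are called genes of the pathway list that are counted but not reported here, and genes of the marker lists, which are named where called or where their levels are given. Since no label names separate cultures within a group, p-values reflect library-to-library spread alone, which may be technical. The alternatives were other size factors, no filter, DESeq2, a replicate block, only the groups compared, each library left out, and a GC and exon length trend per library removed, the last chosen after seeing the data.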

Additional observations from a re-analysis of the deposited data

How the results depend on the processing

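Precision is limited by 2 libraries a group and by the low read counts of Tgfbr2 and Acvr2b. Lefty1 and Tgfbr2 kept direction and call in all 18 alternatives of the main comparison; Lefty1 also in all 10 of 41585 against 41584. The causes of the changes below were not tested.

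Leaving out 1 library (or 41584 and 41589 replicate 2 together) gave 2 to 6 members called in KO and 41585 against the 4 other groups, lowest without KO replicate 1 and highest without WT replicate 2 or without that pair, and 7 to 14 pathway genes. In KO against WT it gave 0 to 2 members (0 without WT replicate 1) and 1 to 4 pathway genes, in 41585 against 41584 1 to 2 members and 1 to 4 pathway genes, in SOM against KO 0 to 1, in 41584 against KO 0 to 2 and in 41589 against KO 1 member in every case. With only the groups compared in the fit, KO against WT called 4 members and 10 pathway genes, 41584 against KO 1 member, and 41585 against 41584 1 pathway gene. In 41585 against 41584 no filter called 4 members and 7 pathway genes, DESeq2 3 and 5, and the GC and length fit 2 members; that fit called 8 pathway genes in KO against WT.

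Of all tested genes, the main fits called 4707, 1929, 1861, 889, 1088 and 1037 in KO and 41585 against the rest, KO against WT, 41585 against 41584, SOM against KO, 41584 against KO and 41589 against KO. With 1 library left out, counts ran from 2576 to 5921, 237 to 606, 348 to 1820, 107 to 368, 203 to 1332 and 186 to 694, and leaving out 41584 and 41589 replicate 2 together gave 7087 in the main comparison. The other settings reached 5508, 4892, 3073, 2265, 1858 and 1794, with lows of 403 and 384 in 41585 against 41584 and 41584 against KO. Against 0 in the main fit, other settings reached 545 genes in 41585 against KO, 3 in 41589 against 41584, 132 in 41584 against WT, 2035 in SOM against WT and 69 in the difference of contrasts.

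Uncalled folds changed sign. With the GC and length trend removed, Acvr2b gave -0.13 in KO and 41585 and -0.13 in 41585 against 41584, and Tgfbr2 0.0347 in SOM against WT. Tgfbr1 in 41585 against 41584 gave -0.00166 with DESeq2 size factors and -0.0103 with only those groups. Acvr1b in SOM against KO gave 0.22 minus the chromosome 15 median. With a library left out, Acvr2b ran from -0.10 to 0.23 in the main comparison, -0.53 to 0.35 in KO against WT and -0.22 to 0.99 in 41585 against 41584; Lefty2 from -0.037 to 2.74 in KO against WT; Tgfbr1 from -0.31 to 0.49 in 41585 against 41584; Acvr1b from -0.41 to 0.81 in 41589 against 41584, -0.98 to 0.24 in 41584 against WT, -0.14 to 0.082 in SOM against KO and -0.23 to 0.99 in 41584 against KO; Lefty1 from -0.16 to 1.03 in 41584 against WT and -0.96 to 0.57 in SOM against WT; and Tgfbr2 from -0.36 to 0.27 in SOM against WT.

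The labels number the libraries 1 and 2 in every group without saying what a number shares. Same-numbered libraries deviated together by a correlation over 0.1 in 5 of 15 pairs of groups (range -0.083 to 0.508), so the numbers are not shown to pair the libraries. With the replicate block, 41585 against 41584 called 2 members, the added one being Acvr1b (adjusted p = 0.0449 by edgeR).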
